A study of Homo sapiens with 16 samples.

Results

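GAS5, ZFAS1 and 8 genes named SNHG (small nucleolar RNA host gene) for their function, SNHG1, SNHG5, SNHG6, SNHG7, SNHG8, SNHG12, SNHG15 and SNHG16, are human noncoding genes that carry small nucleolar RNAs (snoRNAs) in their introns. They were taken by symbol from a table of gene expression, in which they make up 10 of 58051 gene identifiers, and all 10 had a mean of at least 10 normalized counts and were tested among 13765 genes. The cells were P493-6, human B cells that were immortalised in culture. Their MYC transgene is turned off by the tetracycline analogue doxycycline, and their viral activator EBNA2 works only with oestrogen. Cells at high MYC were grown in DMEM with 10% FBS and had no MYC-lowering agent. Cells at medium MYC were given 0.1 µg/mL doxycycline and 1 µM β-estradiol, and both levels were set 24 h before treatment. Each was then treated with DMSO or with IMP1088 at 100 nM, a compound that blocks N-myristoyltransferases (NMT), the enzymes that attach the fatty acid myristate to proteins, and was labelled as a 24 h sample. The 4 groups have 4 libraries each. MYC level, doxycycline and β-estradiol cannot be told apart in this design.

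A snoRNA host gene is transcribed and spliced, its exons are joined into a long RNA, and the snoRNAs are trimmed out of the released introns. Box C/D snoRNAs guide ribose methylation of ribosomal RNA and box H/ACA snoRNAs guide its pseudouridylation, so both serve ribosome production, a process that MYC is known to drive. Many hosts begin with a run of pyrimidines led by C, the terminal oligopyrimidine (TOP) motif that they share with the genes of ribosomal proteins. The spliced RNA of several hosts, GAS5 among them, is known to be degraded by nonsense-mediated decay (NMD), a pathway that acts while the RNA is translated.

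The start regions are shown because the TOP-like run and the TATA-like motif are the features that most of these promoters held. RefSeq promoters, 300 bases from 250 before to 50 after the start in build GRCh38.p14, were matched for 8 of the 10 genes (not SNHG6 and SNHG15). Each line below runs from 45 bases before to 30 bases after the RefSeq start, 5′ to 3′ on the strand of the gene, with TATAA and the C-led pyrimidine run in capitals.
SNHG5 (chr6:85678704-85678778, minus strand): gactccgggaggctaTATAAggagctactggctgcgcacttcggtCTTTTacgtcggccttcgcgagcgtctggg
SNHG7 (chr9:136728155-136728229, minus strand): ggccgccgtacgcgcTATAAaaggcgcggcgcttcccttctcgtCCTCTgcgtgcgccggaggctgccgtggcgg
SNHG8 (chr4:118278717-118278791, plus strand): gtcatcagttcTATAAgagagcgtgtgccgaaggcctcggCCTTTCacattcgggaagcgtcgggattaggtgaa
SNHG12 (chr1:28581844-28581918, minus strand): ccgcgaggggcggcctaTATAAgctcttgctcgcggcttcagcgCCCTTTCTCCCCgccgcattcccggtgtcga
SNHG16 (chr17:76557719-76557793, plus strand): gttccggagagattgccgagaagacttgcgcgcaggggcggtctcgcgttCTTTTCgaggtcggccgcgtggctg
ZFAS1 (chr20:49278597-49278671, plus strand): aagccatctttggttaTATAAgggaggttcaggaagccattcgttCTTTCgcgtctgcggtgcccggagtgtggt

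A C-led run of at least 5 pyrimidines that began within 10 bases on either side of the start, on the gene's strand, was found in those 6 of 8 promoters, and in 31.4% of 35116 RefSeq promoters. In SNHG7, SNHG8 and SNHG12 the run begins before the RefSeq start. TATAA on the gene's strand, 20 to 40 bases before the start, was found in 5 of 8 promoters (SNHG5, SNHG7, SNHG8, SNHG12 and ZFAS1), against 3.91% of all promoters. The MYC-type E-box CACGTG, which reads the same on both strands, was present in 1 of 8 promoters and in 7.26% of all. That promoter is that of SNHG7, where the motif begins 122 bases before the start. The RefSeq start of GAS5 lies upstream of the GENCODE 29 gene, and neither its window nor that of SNHG1 held a match. In GENCODE 29 transcripts, 6 of the 29 GAS5 transcripts begin at chr1:173867989 with a TOP-like run.
GAS5, first 30 bases of these transcripts: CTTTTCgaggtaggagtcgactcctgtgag
Counted only where it began in the first 10 bases of a transcript, such a run was present in 45 of the 136 transcripts of the 10 genes (33.1%). Many of these transcripts share a start. Over all 206694 transcripts it was present in 15.4%. The count in promoters differs, because it also took runs that began before the start. By gene the run was present in 11 of 25 transcripts of SNHG1 and 7 of 29 of GAS5. In SNHG7 it was present in 0 of 4 transcripts and in SNHG15 in 0 of 10. However, 3 of the 4 SNHG7 transcripts begin at its RefSeq start (chr9:136728184), which lies inside the run of its promoter. The part of the run left in these transcripts is shorter than 5 pyrimidines and was not counted. The 6 capital bases of GAS5 are the same letters as the run of SNHG16, which begins at base 6 counted from its RefSeq start. A match describes the letters of the window and shows no binding or activity.

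The libraries held 8755296 to 13858534 reads assigned to genes, recovered from the normalized counts, and the 10 genes had 81 to 3235 reads each in a library. A normalized count is a gene's reads divided by a factor for the library's depth. MYC itself, whose row counts reads of the transgene and of the cell's own gene together, averaged 31649 ± 2130 (SD, n = 4) normalized counts in DMSO at high MYC and 959 ± 48.7 at medium MYC. It fell by 5.04 on the log2 scale (limma adjusted p = 7.37e-27). With IMP1088 it averaged 47542 ± 505 and 1382 ± 51.2, log2 changes of 0.59 and 0.53 from DMSO. The summed counts of 5 B cell markers, all detected in every group, were 21855 to 21971 in DMSO and 17967 to 18864 with IMP1088 at high MYC. At medium MYC they were 33964 to 34621 and 30228 to 31475. Sums of 5 T cell markers were 57.2 to 243, those of 5 monocyte markers 42.2 to 186, and those of 5 epithelial and fibroblast markers 64.8 to 238. All 4 sums were higher at medium than at high MYC (for the latter 3 in DMSO 185 to 243 against 90.5 to 108, 114 to 130 against 42.2 to 64.8, and 177 to 187 against 64.8 to 77.5). FCN1, KRT18 and DCN were at 0 in every library. A sum follows its most abundant gene, and single markers differed. In DMSO 3 B cell markers were higher and 2 lower at medium MYC (limma adjusted p under 0.05). Of the epithelial and fibroblast markers, 2 were tested, with 1 higher and 1 lower. Of 3 T cell markers tested 2 were higher, and of 2 monocyte markers 1, with 0 lower in either list. Over all genes tested 38.9% were higher and 37.3% lower. The part of these markers in the results below was not tested. The labels do not say whether the 4 libraries of a group came from separate cultures, so the tests measure only the spread between these libraries. In bulk RNA fewer cells of a kind and less RNA per cell cannot be told apart.

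Together the 10 genes took 0.0964 ± 0.00215% (SD, n = 4) of the reads in DMSO at high MYC and 0.0376 ± 0.000748% at medium MYC. With IMP1088 the shares were 0.129 ± 0.00170% and 0.0521 ± 0.00132%. The group with the highest share was thus high MYC with IMP1088, and the ranges of the 4 groups did not overlap.

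**Figure D1:**
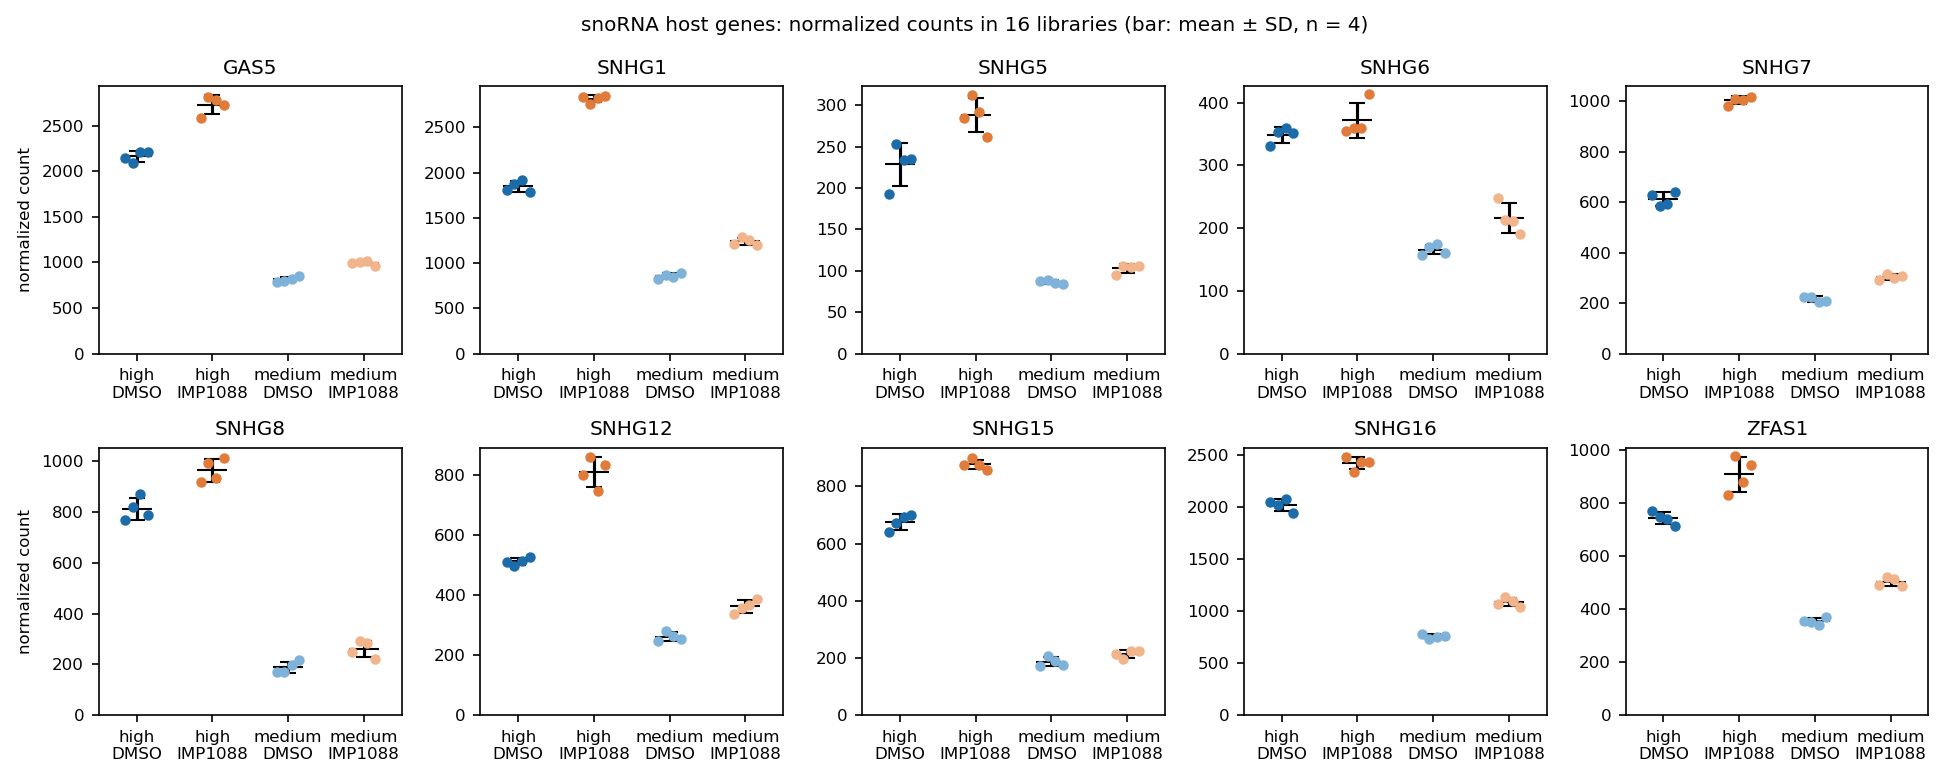
Normalized counts (vertical axes, from 0) of the 10 host genes in 16 libraries, with 4 points per group and bars for the mean ± SD. In each panel both medium MYC groups lie below both high MYC groups, and only SNHG6 at high MYC and SNHG15 at medium MYC have overlapping DMSO and IMP1088 points.

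The first comparison asked how the host genes differed between MYC levels in DMSO. All 10 fell at medium MYC, from 1.96-fold for SNHG12 to 4.32-fold for SNHG8, with a median log2 change of -1.40 against 0.02 over all genes tested. A gene was called at a limma adjusted p under 0.05 over all 13765 genes, and 37.3% of these were called lower in this comparison (38.9% higher, 76.2% in either direction). In all 10 genes every medium MYC library lay below every high MYC library, as did 33.6% of genes tested. With IMP1088 present all 10 were again lower at medium MYC, 1.73-fold to 4.10-fold, and without overlap, where 37.8% of genes were called lower and 35.4% lay wholly lower.

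The second comparison asked how the genes responded to IMP1088. At high MYC 9 of 10 rose, by 1.19-fold to 1.64-fold, and SNHG6 (1.06-fold) did not pass. At medium MYC all 10 rose, by 1.15-fold to 1.45-fold. The median log2 changes were 0.33 and 0.47, against -0.02 and -0.01 over all genes tested. Of all genes, 10.5% were called higher at high MYC and 11.7% at medium MYC, and 4.76% at both, a class that held 9 of the 10. This class includes SNHG8, which lost its call at high MYC under some settings. It also includes SNHG5 and SNHG15, which lost theirs at medium MYC under some settings. The shares called lower over all genes were 16.3% and 14.6%. No library overlapped between DMSO and IMP1088 for 9 genes at each level, where 10.9% and 12.4% of all genes were wholly higher. The high MYC comparison between DMSO and IMP1088 and the comparison of MYC levels in DMSO share the high MYC DMSO libraries, so their values for a gene are not independent. The same holds at medium MYC, where the comparison between DMSO and IMP1088 shares the medium MYC DMSO libraries with it.

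**Figure D2:**
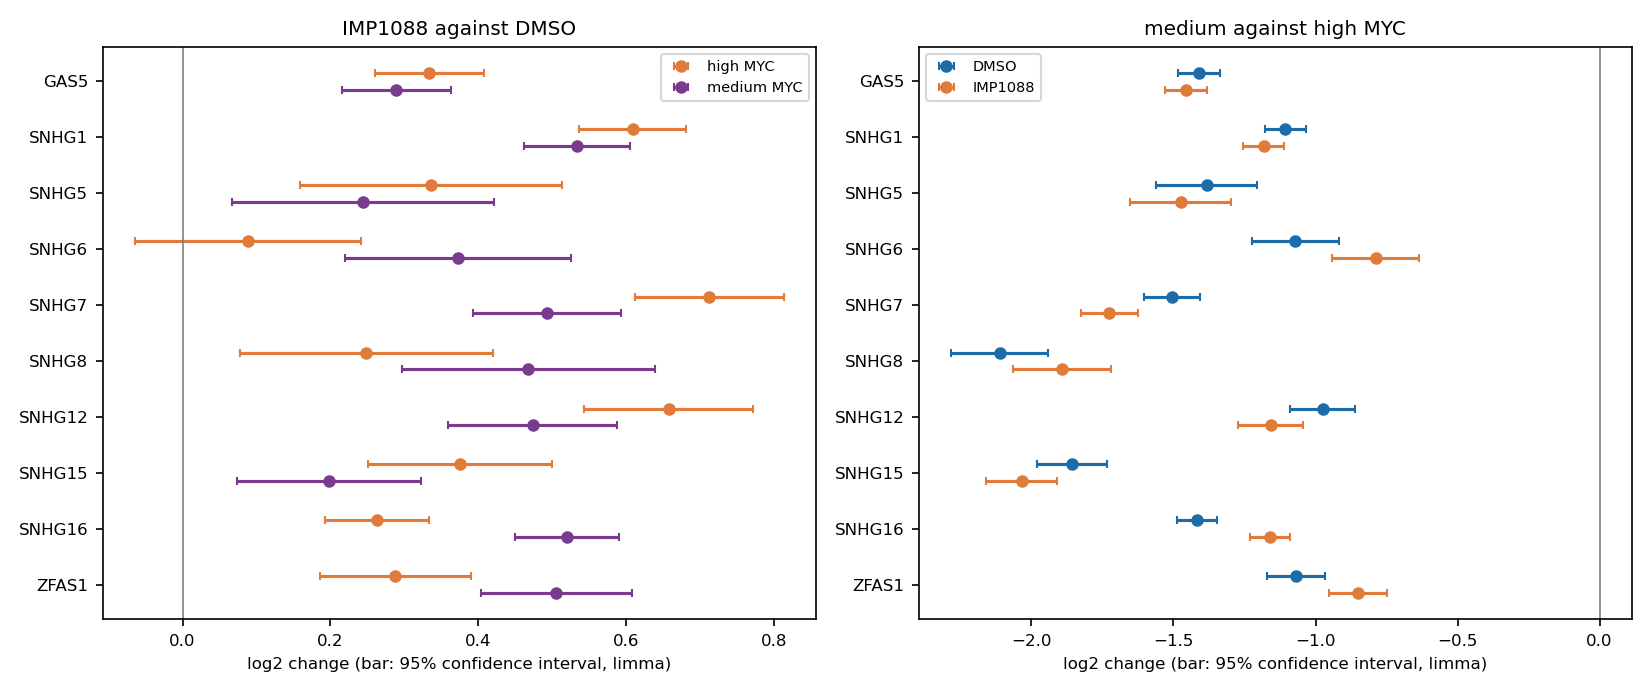
Log2 changes (horizontal axes) of the 10 host genes with 95% confidence intervals from limma, for IMP1088 against DMSO at both MYC levels (left) and for medium against high MYC in DMSO and IMP1088 (right). On the left the interval of SNHG6 at high MYC is the one that crosses 0, and on the right all intervals lie below 0.

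Of the hosts of box C/D snoRNAs, GAS5, whose name (growth arrest specific) records its build-up in arrested cells, lies on the minus strand of chromosome 1 (chr1:173863900-173868882, GRCh38). Its normalized counts in DMSO at high MYC were 2146, 2091, 2208 and 2215, and with IMP1088 2584, 2821, 2782 and 2733. At medium MYC they were 785, 797, 818 and 855 in DMSO and 988, 1008, 1016 and 966 with IMP1088. The 4 groups did not overlap, and the order was high MYC with IMP1088, high MYC in DMSO, medium MYC with IMP1088, then medium MYC in DMSO. The log2 change with IMP1088 was 0.33 at high MYC (SE 0.0355, limma adjusted p = 3.53e-07) and 0.29 at medium MYC (adjusted p = 2.16e-06). Between MYC levels GAS5 fell by 1.41 on the log2 scale in DMSO (limma adjusted p = 3.56e-19). The response to IMP1088 differed between levels by 0.04, with a 95% confidence interval from -0.06 to 0.15.

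SNHG1, which carries several SNORD genes (chr11:62851988-62855914, minus strand), had the largest estimated response to IMP1088 of the 10 at medium MYC. Its normalized counts were 1812, 1869, 1920 and 1788 in DMSO and 2836, 2762, 2823 and 2847 with IMP1088 at high MYC. At medium MYC they were 820, 873, 841 and 895 in DMSO and 1212, 1290, 1259 and 1204 with IMP1088. The groups were fully apart at both levels. SNHG1 rose 1.53-fold at high MYC (log2 change 0.61, SE 0.0347, limma adjusted p = 3.44e-11) and 1.45-fold at medium MYC (0.53, adjusted p = 1.58e-10). It fell by 1.11 on the log2 scale at medium MYC in DMSO (limma adjusted p = 1.49e-17). The difference between the responses was 0.08, with an interval from -0.03 to 0.18.

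SNHG16, the host of the SNORD1 genes (chr17:76557766-76565348, plus strand), rose more at medium than at high MYC. At high MYC its normalized counts were 2043, 2020, 2075 and 1939 in DMSO and 2483, 2338, 2436 and 2434 with IMP1088. At medium MYC they were 779, 735, 754 and 757 in DMSO and 1068, 1131, 1097 and 1043 with IMP1088. DMSO and IMP1088 libraries were apart at both levels, and the relative gap was wider at medium MYC. The log2 change was 0.26 at high MYC (SE 0.0339, limma adjusted p = 4.63e-06) and 0.52 at medium MYC (adjusted p = 1.65e-10). The difference, high minus medium MYC, was -0.26 (interval from -0.36 to -0.16, limma adjusted p = 0.00116). In DMSO SNHG16 fell by 1.42 on the log2 scale at medium MYC (limma adjusted p = 1.56e-19).

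ZFAS1, the host of the SNORD12 genes (chr20:49278178-49295738, plus strand), held 713 to 769 normalized counts in DMSO and 831 to 978 with IMP1088 at high MYC. At medium MYC it held 340 to 370 in DMSO and 489 to 520 with IMP1088, so the groups were again apart. It rose by 0.29 at high MYC and 0.51 at medium MYC on the log2 scale (SE 0.0490, limma adjusted p = 1.35e-04 and 7.64e-08). The difference of -0.22 had an interval from -0.36 to -0.07 before adjustment and an adjusted p of 0.0555, and did not pass. It passed without high MYC DMSO replicate 4 (adjusted p = 0.0495), high MYC IMP1088 replicate 2 (0.0250) or medium MYC DMSO replicate 4 (0.0472). ZFAS1 fell by 1.07 on the log2 scale at medium MYC in DMSO (limma adjusted p = 1.26e-14).

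SNHG5, the host of SNORD50 genes (chr6:85660950-85678748, minus strand), had the lowest normalized counts of the 10. It held 192 to 253 normalized counts in DMSO and 262 to 312 with IMP1088 at high MYC, and 83.7 to 89.0 and 94.4 to 106 at medium MYC. It rose by 0.34 (SE 0.0850, limma adjusted p = 0.00520) and 0.24 (adjusted p = 0.0382). The call at medium MYC was lost when any 1 of 7 of the 8 medium MYC libraries was left out (adjusted p up to 0.0874), the exception being IMP1088 replicate 1. SNHG5 fell by 1.38 on the log2 scale at medium MYC in DMSO (limma adjusted p = 2.16e-12).

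SNHG6, the host of SNORD87, did not pass at high MYC. Its normalized counts there were 331, 354, 360 and 352 in DMSO and 355, 359, 360 and 414 with IMP1088, so the groups overlapped and the fourth IMP1088 library stood above the others. The log2 change was 0.09, with a 95% confidence interval from -0.06 to 0.24 (limma adjusted p = 0.415). At medium MYC it rose from 158, 170, 174 and 161 to 248, 213, 211 and 191, which is 0.37 on the log2 scale (SE 0.0735, limma adjusted p = 5.65e-04). The difference of -0.28 between the responses (interval from -0.50 to -0.07) did not pass over all genes (limma adjusted p = 0.103), and passed without medium MYC IMP1088 replicate 4 (adjusted p = 0.0416). SNHG6 fell by 1.07 on the log2 scale at medium MYC in DMSO (limma adjusted p = 1.46e-11).

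Among hosts of box H/ACA snoRNAs, SNHG7, which carries SNORA17 genes (chr9:136721366-136728184, minus strand), had the largest estimated response of the 10 to IMP1088 at high MYC. Its normalized counts at high MYC were 629, 586, 594 and 642 in DMSO and 982, 1009, 1006 and 1019 with IMP1088. At medium MYC they were 223, 226, 204 and 208 in DMSO and 290, 316, 300 and 307 with IMP1088. Both pairs of groups were apart, and the IMP1088 libraries at high MYC lay within a narrow range. SNHG7 rose 1.64-fold at high MYC (log2 change 0.71, SE 0.0481, limma adjusted p = 4.42e-10) and 1.41-fold at medium MYC (0.49, adjusted p = 8.45e-08). The difference of 0.22 had an interval from 0.08 to 0.36 and passed by a small margin (limma adjusted p = 0.0482). That call was lost when any 1 of 11 of the 16 libraries was left out, with adjusted p up to 0.104. At high MYC these were DMSO replicates 2 and 3 and all 4 with IMP1088, and at medium MYC DMSO replicates 1 and 2 and IMP1088 replicates 1, 3 and 4. It was also lost under edgeR (adjusted p = 0.0709) and DESeq2 (adjusted p = 0.151). SNHG7 fell by 1.51 on the log2 scale at medium MYC in DMSO (limma adjusted p = 2.11e-17).

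SNHG12, which carries both SNORA genes and SNORD99 (chr1:28578538-28583132, minus strand), held 511, 499, 514 and 529 normalized counts in DMSO and 800, 862, 748 and 834 with IMP1088 at high MYC. At medium MYC it held 246, 280, 264 and 254 in DMSO and 338, 359, 367 and 388 with IMP1088. The DMSO and IMP1088 libraries did not overlap at either level. It rose by 0.66 at high MYC and 0.47 at medium MYC on the log2 scale (SE 0.0550, limma adjusted p = 1.08e-08 and 1.0e-06). The difference of 0.18 (interval from 0.02 to 0.35) did not pass over all genes (limma adjusted p = 0.164). Its fall between MYC levels in DMSO, by 0.97 on the log2 scale, was the smallest of the 10 estimates (limma adjusted p = 4.87e-13).

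SNHG8, the host of SNORA24 (chr4:118278709-118279823, plus strand), had the largest estimated fall between MYC levels. It held 770, 821, 872 and 787 normalized counts in DMSO at high MYC and 169, 170, 197 and 216 at medium MYC, and thus fell by 2.11 on the log2 scale (SE 0.0822, limma adjusted p = 6.86e-16). With IMP1088 it held 921, 993, 935 and 1012 at high MYC and 249, 291, 282 and 220 at medium MYC. The lowest IMP1088 library at medium MYC (220) lay close above the highest DMSO library there (216). SNHG8 rose by 0.25 at high MYC (limma adjusted p = 0.0290) and by 0.47 at medium MYC (adjusted p = 1.67e-04). The call at high MYC was lost without any 1 of 5 libraries (DMSO replicates 1, 2 and 4, IMP1088 replicates 2 and 4), with adjusted p up to 0.0789. The responses differed by -0.22 (interval from -0.46 to 0.02, adjusted p = 0.290).

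SNHG15, the host of SNORA9 (chr7:44983023-44986961, minus strand), held 639 to 700 normalized counts in DMSO and 859 to 900 with IMP1088 at high MYC. At medium MYC the DMSO libraries held 172 to 207 and the IMP1088 libraries 195 to 225, and these ranges overlapped. It rose by 0.38 at high MYC (SE 0.0597, limma adjusted p = 6.16e-05) and by 0.20 at medium MYC (adjusted p = 0.0167). The latter call was lost without any 1 of 4 libraries (DMSO replicates 1 and 4, IMP1088 replicates 3 and 4), with adjusted p up to 0.0643, under DESeq2 (adjusted p = 0.0679) and with only the 2 groups compared in the fit (adjusted p = 0.0795). SNHG15 fell by 1.86 on the log2 scale at medium MYC in DMSO (limma adjusted p = 2.28e-17). Its responses differed by 0.18 (interval from 0.0016 to 0.35, adjusted p = 0.230).

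In the test of the difference between responses, 2 of the 10 were called, SNHG16 and SNHG7, in opposite directions. Over all genes 8.63% were called in that test, 3.31% with the larger value at high MYC and 5.33% at medium MYC. The estimated rise was larger at high MYC for 6 genes (GAS5, SNHG1, SNHG5, SNHG7, SNHG12 and SNHG15) and larger at medium MYC for the other 4. SNHG16 kept its call under every setting tried and without each library (adjusted p up to 0.00723), and was the only 1 called under 6 settings.

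Levels were compared between genes as normalized counts per kilobase of merged exons. In DMSO at high MYC the order was SNHG8 (880), GAS5 (596), SNHG1 (492), SNHG16 (377), ZFAS1 (331), SNHG6 (280), SNHG15 (185), SNHG7 (141), SNHG12 (120) and SNHG5 (81.4), and the libraries of neighbours in that order did not overlap. At medium MYC in DMSO the order began with SNHG1 (228), GAS5 (224) and SNHG8 (204), and the libraries of these 3 overlapped. Merged exons include retained introns, and the order depended on the length used. Per kilobase of mean transcript length GAS5 was first in DMSO at high MYC (2987), ahead of SNHG1 (2194) and SNHG8 (1730).

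GENCODE 29 places 26 snoRNA genes inside 9 of the hosts on the same strand, and 22 of them touch a merged exon of the host. The table had a row for all 26, of which 18 were at 0 in every library. The annotation places none inside GAS5, and the 4 rows named SNORD79 or SNORD81, snoRNAs known from GAS5, were at 0. The 8 with reads were SNORA17B (2 identifiers), SNORD22 (2 identifiers), SNORA24, SNORA9, SNORA61 and SNORA44. SNORA17B inside SNHG7, at up to 41.9 and 26.8 normalized counts, was the one tested, with log2 changes for IMP1088 at high MYC of 0.18 and 0.12 (limma adjusted p = 0.739 and 0.868). Whether the libraries kept RNA as short as a mature snoRNA is not given in the sources used here, and a row at 0 is not read as absence.

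Some hosts overlap genes on the opposite strand, and the strand setting of the counting is not given in the sources used here, so reads from shared exon bases cannot be told apart. SNHG7 shares 1094 exon bases with DIPK1B, which had log2 changes of 0.15 and -0.07 with IMP1088 and fell by 0.44 at medium MYC in DMSO. ZFAS1 shares 249 with ZNFX1, which was higher at medium MYC in DMSO by 0.52 where ZFAS1 was lower. SNHG12 shares 8 with TRNAU1AP, which was higher by 0.85 at medium MYC in DMSO. GAS5 shares 42 with GAS5-AS1, a row with a mean of 4.83 normalized counts. SNHG16 shares 1639 with AC015802.6, which was not analysed here.

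Of the 20 nearest tested genes on either side of the hosts, 3 were called higher and 4 lower with IMP1088 at high MYC, and 3 higher and 5 lower at medium MYC, with median log2 changes of -0.04 at each level. Over all genes 10.5% were called higher and 16.3% lower at high MYC, and 11.7% and 14.6% at medium MYC, so these counts are small numbers near the background. Between MYC levels in DMSO 8 were called higher and 4 lower, against 38.9% and 37.3% of all genes. The closest is SLC3A2, which encodes the heavy chain of several amino acid transporters and lies 188 bases from SNHG1 on the opposite strand. It held 1134, 1174, 1077 and 1117 normalized counts in DMSO and 1009, 972, 1002 and 1077 with IMP1088 at high MYC. At medium MYC it held 443, 475, 452 and 478 in DMSO and 666, 680, 712 and 655 with IMP1088. SLC3A2 thus fell by 0.15 with IMP1088 at high MYC (limma adjusted p = 0.0117), where SNHG1 rose, and rose by 0.55 at medium MYC (adjusted p = 2.28e-09). Its own difference between the responses was -0.70 (limma adjusted p = 6.80e-08). The difference between the 2 genes was not tested. MYO1G, the lower-coordinate neighbour of SNHG15 at 3925 bases, was lower by 0.77 with IMP1088 at high MYC and higher by 1.26 at medium MYC in DMSO, the reverse of SNHG15.

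**Figure D3:**
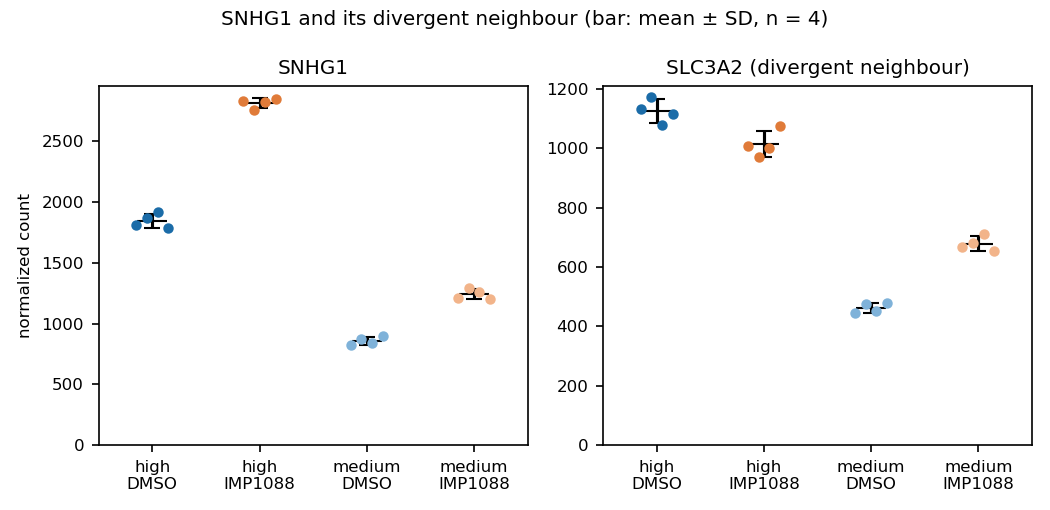
Normalized counts (vertical axes, from 0) of SNHG1 and of SLC3A2, 188 bases away on the opposite strand, in 16 libraries with bars for the mean ± SD of 4. At high MYC the IMP1088 points lie above DMSO for SNHG1 (2762 to 2847 against 1788 to 1920). The SLC3A2 points lie lower with IMP1088 (972 to 1077 against 1077 to 1174), but the ranges nearly touch (1076.9 against 1077.2).

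Other noncoding snoRNA hosts, 17 tested of 22, gave 9 called higher with IMP1088 at high MYC (median log2 change 0.22) and 10 at medium MYC (0.31). In DMSO 16 of 17 were lower at medium MYC, with a median of -1.73. Over all genes 10.5% and 11.7% were called higher with IMP1088, and 37.3% lower at medium MYC in DMSO. SNHG3 rose by 0.41 and 0.46 and fell by 1.76 on the log2 scale between MYC levels. DANCR, the host of a snoRNA and a regulator of cell differentiation, fell by 2.84 and rose by 0.54 at medium MYC, with a difference between responses of -0.52 (limma adjusted p = 5.81e-05).

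Of 22 ribosomal protein genes that carry snoRNAs, 17 rose with IMP1088 at high MYC (median 0.11) and 21 at medium MYC (0.20). All 22 fell at medium MYC in DMSO (median -0.85), where 37.3% of all genes were called lower. RPL3 rose by 0.17 at high MYC and RPL4 by 0.24 at medium MYC. The 17 TOP genes of translation without a ribosomal protein had 13 called higher and 1 lower at high MYC (median 0.11) and 16 higher and 1 lower at medium MYC (0.19). The translation factor EIF4B rose by 0.22 and 0.27, and VIM, the intermediate filament vimentin, was the one that fell, by 0.14 and 0.17. Of 23 other protein-coding hosts 6 rose and 3 fell at high MYC, and 11 rose and 3 fell at medium MYC. Over all genes 10.5% and 11.7% were called higher with IMP1088, and the falls were near the shares called lower (16.3% and 14.6%). At medium MYC in DMSO 16 TOP genes were lower and 1 higher. Of the other protein-coding hosts 20 were lower and 3 higher there, against 37.3% and 38.9% of all genes. The lists share genes: EEF2, EEF1B2 and RACK1 are also among the TOP genes, and NOP56 and DKC1 among the proteins that pack snoRNAs. EEF2, elongation factor of translation, rose by 0.17 and 0.32, and HSPA8, a chaperone, fell by 0.21 and 0.29. The list medians with IMP1088 were smaller than that of the 10 genes at both levels, which is given as a description with no test.

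Of the proteins that pack snoRNAs, all 4 of box C/D fell at medium MYC in DMSO with a median of -1.41, among them the methyltransferase FBL (-1.72), and had log2 changes from -0.05 to 0.04 with IMP1088 at high MYC. All 4 box H/ACA proteins fell with a median of -1.49, among them the pseudouridine synthase DKC1 (-1.42). With IMP1088 at high MYC 1 of them, NOP10, fell by 0.24 (limma adjusted p = 0.00817). Of 10 assembly factors 9 fell at medium MYC in DMSO (median -1.02). In that comparison 37.3% of all genes were called lower and 38.9% higher. With IMP1088 1 of the 10 assembly factors rose at high MYC and 3 at medium MYC, against 10.5% and 11.7% of all genes. NOLC1, a nucleolar chaperone of snoRNPs, rose by 0.27 at medium MYC (limma adjusted p = 4.04e-07). Of 14 NMD factors 1 rose (SMG1, by 0.12) and 2 fell (SMG9 by 0.31 and SMG6 by 0.17) at high MYC, near the shares over all genes (10.5% higher and 16.3% lower). EIF4A3, a core protein of the exon junction complex, was the 1 that rose at medium MYC, by 0.29 (limma adjusted p = 2.56e-06). In DMSO 3 NMD factors were higher and 8 lower at medium MYC, with a median of -0.13, against 38.9% and 37.3% of all genes.

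**Figure D4:**
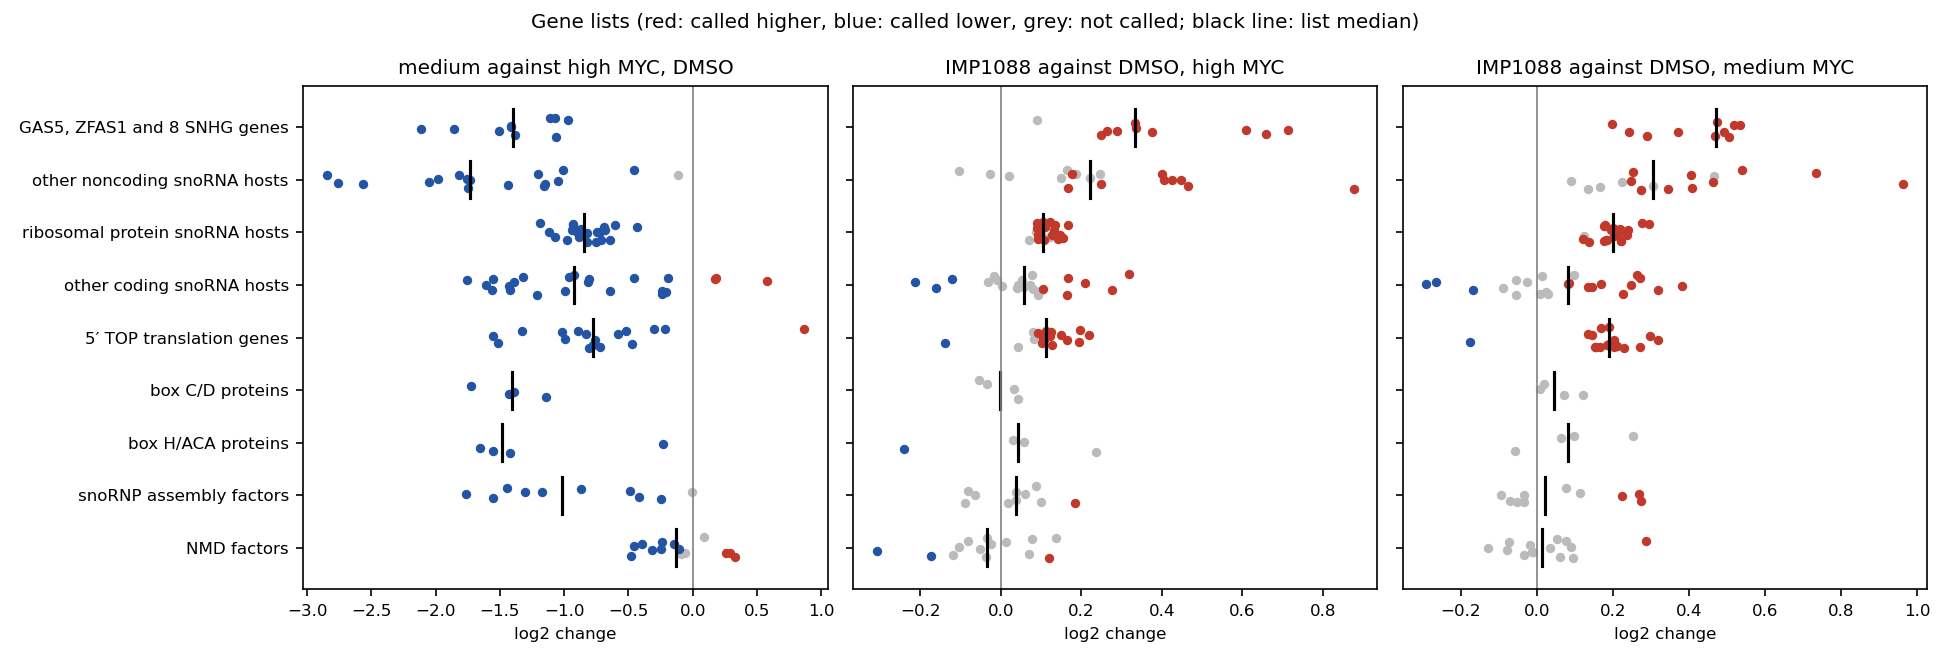
Log2 changes (horizontal axes) of the genes of 9 lists, in red where called higher, blue where called lower and grey where not called, with a black line at the list median, for medium against high MYC in DMSO and for IMP1088 at high and medium MYC. The 10 host genes have medians of -1.40, 0.33 and 0.47, and NMD factors have a median of -0.13 in the first panel.

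Likeness of pattern was measured as the root-mean-square distance between the 4 group means of log2 normalized counts after each gene's own average was removed, over 10843 candidate genes. GAS5 and SNHG5 were close to each other (0.0162), with UQCC6 at 0.0159 the nearest to GAS5. SNHG1 had SNHG12 as its nearest gene (0.0479), while SNAI1 (0.0402) and MYH3 (0.0471) were nearer to SNHG12. For SNHG16 the nearest were SLC39A14 (0.0471) and GNL3 (0.0598), a nucleolar GTPase gene that itself hosts snoRNAs. SNHG6 (INO80B, second to an unnamed gene), SNHG7 (LINC00235 and THOC1-DT), SNHG8 (LAMC3 and COQ8A), SNHG15 (RFK and MBLAC2) and ZFAS1 (FAM241A first) had nearest genes outside the 10. With 4 group means per gene, the distance describes these groups only.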

How the data were processed

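RNA was extracted with the miRNeasy kit, made into libraries with a Nugen cDNA kit and sequenced on Illumina HiSeq, per the labels' protocols. STAR 2.5.2a, RSEM 1.2.31, DESeq2 1.16.1 and GRCh38 are named in the submitters' processing notes. The deposited values are a signal: whole gene counts that the authors divided by a size factor per library, and 100% of values were whole reads after multiplication by that factor (tolerance 1e-06). Values were tested as log2(value + 1) by limma (version 3.58.1, R version 4.3.3) for 13765 genes with a mean of at least 10, with a mean trend, all 16 libraries in 1 fit and Benjamini-Hochberg adjustment. Fold changes on this scale understate those of low genes. Count tests of the recovered reads (edgeR 4.0.16, and DESeq2 in version 1.42.0), other scalings and filters, a GC and length correction, a replicate block and leaving out each library were alternatives. The fit was also run on simulated counts that gave every gene the same setting for spread, and no result above draws on that run. The named genes were the 10 hosts, up to 2 genes per direction and list with the smallest adjusted p and a mean of at least 50, the flanking and overlapping genes and the 2 nearest patterns. The 10 genes and the lists were chosen with earlier results of these data known. Gene positions are from GENCODE 29.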

Additional observations from a re-analysis of the deposited data

Results flagged for a closer look

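SNHG16 and SNHG7 passed the limma test of the difference between the responses to IMP1088 at the 2 MYC levels. The difference on the log2 scale, high minus medium MYC, was -0.26 for SNHG16 (limma adjusted p = 0.00116) and 0.22 for SNHG7 (adjusted p = 0.0482). SNHG7 lost its call without any 1 of 11 of the 16 libraries (adjusted p up to 0.104), under edgeR (0.0709), under DESeq2 (0.151) and with the replicate block (0.0800).

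In 2 of 40 sets of 4 libraries (10 genes in 4 groups) 1 library stood far from the other 3 by Dixon's test, which chance gives in about 1 in 20 sets. SNHG5 at medium MYC with IMP1088 had 94.4 normalized counts in replicate 1, below the other 3. SNHG6 at high MYC with IMP1088 had 413.7 in replicate 4, above the other 3.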

How the results depend on the processing

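The count of the 10 genes called lower at medium MYC stayed at 10 under every alternative run, in DMSO and with IMP1088. With IMP1088 the count was 8 to 9 at high MYC and 8 to 10 at medium MYC. SNHG8 at high MYC lost its call with no filter, no mean trend and a replicate block. SNHG5 at medium MYC lost it under 6 settings other than leaving out a library, with adjusted p up to 0.132 (DESeq2), and SNHG15 under DESeq2 (0.0679) and with only the groups compared (0.0795). The count for the difference between responses fell from 2 to 1 with TMM factors, no filter, edgeR and DESeq2, and to 1 with the replicate block, alone or with the GC and length correction; without 1 library it was 1 to 3. SNHG7 was the gene lost in each of these 6 settings, and it also lost its call with equal library totals (adjusted p = 0.0848). ZFAS1 gained the call with equal library totals (adjusted p = 0.0446) and a minimum mean of 100 (0.0440). The causes were not tested beyond the settings' own construction. No direction of a called change reversed. On average same-numbered libraries did not deviate together (mean residual correlations from -0.07 to 0.02), so the numbers were not used as pairs. Single correlations ran from -0.154 to 0.239, the highest for replicate 4 in DMSO at high and medium MYC. The replicate block gave 8 called genes at high MYC, 10 at medium MYC and 10 in both comparisons of MYC levels. No scaling moved the median of all genes by over 0.1 on the log2 scale. Each scaling brings the libraries to a common level, so all changes are relative to the other genes. This median therefore cannot show a change in RNA per cell that all genes share. SNHG5 had as few as 81 reads in a library, which limits its precision.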
